A study of Mus musculus with 10 samples.

Results

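Embryoid bodies (EB) that had been induced towards primordial germ cell-like cells (PGCLC) contain mostly cells that do not become PGCLC, and these somatic cells are described here at d2 and d4. They were the EB cells of the mouse ESC line E14Tg2a whose barcodes are not in the study's list of PGCLC, that is 446 of 537 cells at d2 and 324 of 368 cells at d4, or 770 of the 2782 cells of the E14Tg2a table. The study made its list from expression in these same libraries, so the level of PGC and pluripotency genes in the somatic cells is partly set by the choice, and a cell missing from the list may still carry PGC genes. Both libraries came from the same wild type line. ESC were maintained in serum and LIF (leukemia inhibitory factor) and adapted before differentiation to 2i and LIF, with inhibitors of MEK and GSK3. They were first turned into EpiLC for 2 days with Activin A, bFGF and knockout serum replacement. The EpiLC were then aggregated into EB in a serum replacement medium holding BMP4, SCF, LIF and EGF. The cells of each stage were 1 droplet-based 3' scRNA-seq library, so that an effect of the stage and one of its library cannot be told apart, and a test across samples could not be made. The model is a culture of 1 line without the tissues that surround the epiblast in the embryo.

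In the mouse embryo, BMP signals from the extraembryonic ectoderm act on the proximal epiblast. Most of the cells there pass through the primitive streak and become mesoderm, which exchanges epithelial for mesenchymal genes and gives rise to the extraembryonic mesoderm, the allantois and the first endothelium and blood. Only a few cells next to them become primordial germ cells. The genes of these steps are followed here from d2 to d4.

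The 446 d2 cells held 11716150 UMIs (unique molecular identifiers, counted molecules) and the 324 d4 cells 8548972 UMIs, with a median of 24045.5 UMIs and 4325.5 genes per d2 cell and of 21487.5 UMIs and 4357.5 genes per d4 cell. A level is the UMIs of a gene summed over all cells of a stage per 1000000 UMIs (CPM), followed by its 95% Poisson interval. A ratio of both levels, taken without a pseudocount, is followed by an exact conditional interval. Shares of cells with a UMI were taken after every cell had been thinned to 15550 UMIs, which kept 428 d2 and 291 d4 cells, and carry exact binomial intervals. All intervals cover counting error only. The labels were checked against PGC genes, which is no independent check. At least 3 of *Prdm1*, *Prdm14*, *Dppa3*, *Nanos3*, *Dnd1* and *Nanog* (6 PGC genes) had a UMI, before thinning, in 78.0% (68.1 to 86.0) of the 91 listed d2 PGCLC and in 72.7% (57.2 to 85.0) of the 44 listed d4 PGCLC, against 17 d2 somatic cells (3.81%, 2.24 to 6.03) and 1 d4 somatic cell (0.309%, 0.00781 to 1.71). The 2 libraries shared 1 barcode, and Scrublet marked 3 d2 and 6 d4 somatic cells as doublets, which were kept.

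More genes were higher at d4 than lower. Of 10717 genes with at least 50 UMIs over both stages, 1027 (9.58%) were at least 2-fold higher at d4 and 422 (3.94%) at least 2-fold lower, on the scale of log2(CPM + 1). This limit is a rule of size and no test. The median log2 ratio over all measured genes was 0.12, and 66.0% of them lay within 0.5 of 0. At least 8-fold differences were found for 137 genes that were higher and 34 that were lower. The ratio's counting interval lay wholly beyond 2-fold for 710 of the higher and 287 of the lower genes. In shares of cells, 351 genes (3.28%) were detected in at least 20 percentage points more of the d4 cells and 189 (1.76%) in at least 20 points fewer. Some of the higher genes came from few cells. For 145 of them at least 75% of the d4 UMIs lay in the 5% of cells that had most, while only 6 of the lower genes were so concentrated at d2.

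**Figure D1:**
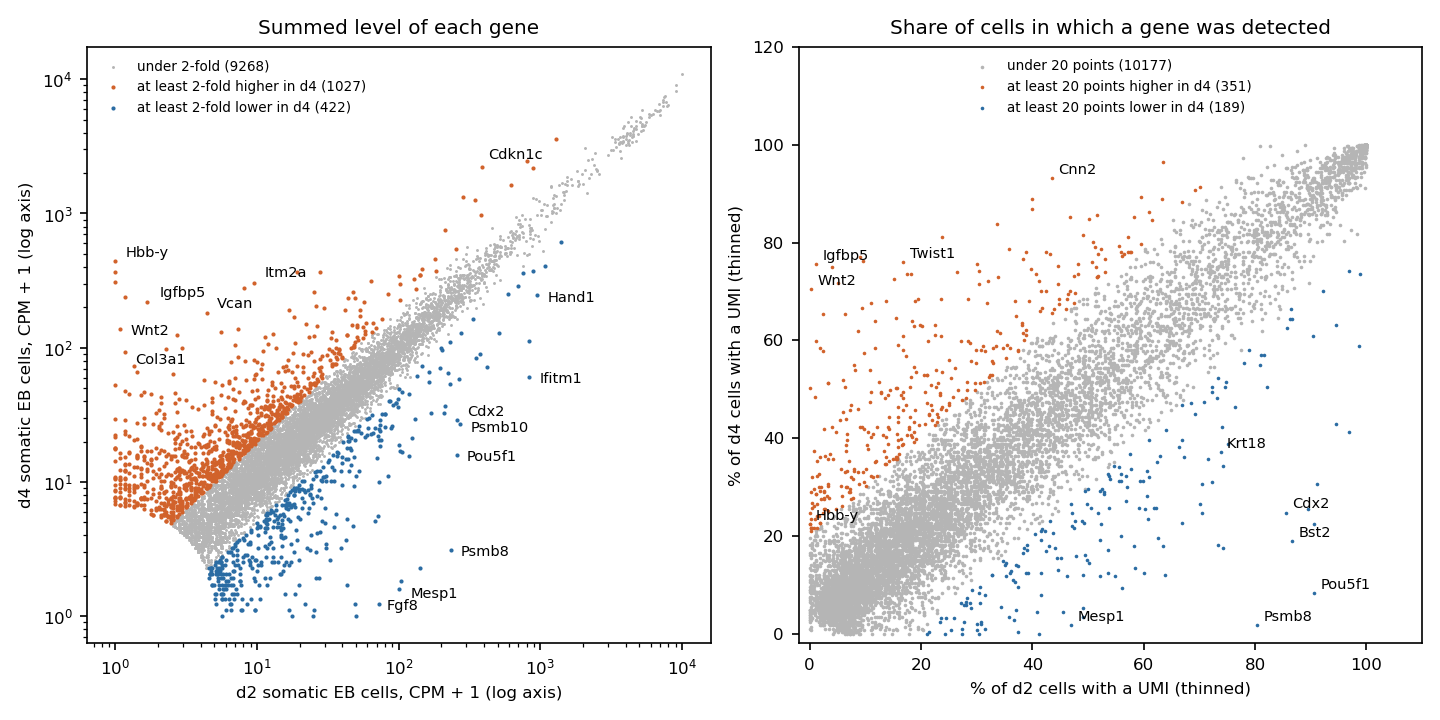
Each point is 1 of the 10717 measured genes. Left, level in d4 against d2 somatic cells as CPM + 1 on log axes. Right, percentage of thinned d4 against d2 cells with a UMI. Orange marks genes higher at d4 (1027 by level, 351 by share), blue genes lower at d4 (422 and 189). *Wnt2* and *Igfbp5* sit near 0% at d2 and above 70% at d4, and *Psmb8* lies at 80.4% at d2 and 1.72% at d4.

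Most primitive streak and nascent mesoderm genes were lower at d4, some of them to a few UMIs. Of 12 measured genes of this list, 8 were lower and 3 higher, with a median log2 ratio of -2.17. *Mesp1*, the bHLH factor that marks mesoderm as it leaves the streak, was at 102 CPM (96.3 to 108) at d2 and 0.819 CPM (0.329 to 1.69) at d4, 125-fold lower (60.3 to 310.5). It was detected in 47% (42.2 to 51.8) of d2 and 1.72% (0.56 to 3.96) of d4 cells. *Fgf8*, the FGF ligand of the streak, was at 99.8 CPM (94.1 to 106) and 0.585 CPM (0.19 to 1.36), 171-fold lower (72.9 to 526). *T* (Brachyury), the T-box factor of the streak, had 560 UMIs at d2 and 2 at d4, which gave 47.8 and 0.234 CPM and a ratio of d2 over d4 of 204 (56.3 to 1691). *Mixl1* (17.4 and 0.468 CPM) and *Evx1* (29.9 and 2.46 CPM), homeobox genes of the streak, and *Lefty2* (18.9 and 1.64 CPM), a Nodal antagonist, had log2 ratios of -3.65, -3.16 and -2.91. The 3 members that were higher were *Pdgfra*, the receptor of PDGF-A, at 5.38 CPM (4.13 to 6.88) and 53.6 CPM (48.8 to 58.7), the apelin receptor *Aplnr* at 2.05 and 14.3 CPM, and the secreted WNT antagonist *Frzb* at 0.171 and 11.1 CPM. Of the d4 *Aplnr* UMIs, 96.7% lay in 28 cells with endothelium markers, and in cells without the markers of other classes *Aplnr* was at 2.38 and 0.737 CPM. Streak genes overlapped within d2 cells. Of 428 thinned d2 cells, 201 had *Mesp1*, 160 *Fgf8* and 130 *T*, and 95 of the 130 *T* cells also had *Mesp1*.

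Posterior mesoderm genes moved with them. Of 10 measured members 7 were lower and 0 higher, with a median of -1.24. *Cdx2*, the caudal homeobox factor, was abundant at d2 with 257 CPM (248 to 266) in 85.5% (81.8 to 88.7) of cells and 9.18-fold lower (8.05 to 10.5) at d4, with 28 CPM (24.5 to 31.7) in 24.7% (19.9 to 30.1). Its paralog *Cdx4* had 280 UMIs at d2 (23.9 CPM) and 0 at d4, and was thus at least 68.1-fold lower against a floor of 3 counts over all d4 cells (0.351 CPM). *Cdx1* was at 12.1 and 1.52 CPM. *Cyp26a1*, which degrades retinoic acid in the tailbud, was at 67.5 CPM (62.9 to 72.4) and 4.09 CPM (2.85 to 5.69).

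Further genes among the 15 with the lowest ratios have diverse roles. *Alox15*, a lipoxygenase of fatty acids, had 577 UMIs at d2 (49.2 CPM) and 0 at d4, at least 140-fold lower against the same floor. *Pgam2*, the muscle form of phosphoglycerate mutase, was 108-fold lower (60.5 to 218), at 139.6 and 1.29 CPM. The FGF ligand *Fgf3* was 60.4-fold lower (27.6 to 165), at 42.4 and 0.702 CPM. *Cpxm2*, a carboxypeptidase-like protein, had 195 UMIs at d2 and 0 at d4, at least 47.4-fold lower. *Arg1*, the arginase of the urea cycle, had 184 UMIs at d2 and 1 at d4, a ratio of d2 over d4 of 134 (23.8 to 5331). *Sprr2a3* (832 and 2 UMIs) and *Defa30* (284 and 1 UMIs) belong to families of near-identical copies, between which the counting could split reads, so their identity is uncertain.

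Pluripotency genes were lower as well, and for *Pou5f1* both stages differed in how many cells carried it. Of 18 measured members 8 were lower and 1 higher, with a median of -0.94. *Pou5f1* (Oct4) stood at 256 CPM (246 to 265) in d2 somatic cells and was found in 90.7% (87.5 to 93.2) of them. At d4 it was at 15 CPM (12.5 to 17.8) and in 8.25% (5.36 to 12) of cells, 17.1-fold lower (14.3 to 20.5). The listed PGCLC of the same libraries held 824 and 808 CPM. Of the d4 somatic *Pou5f1* UMIs, 63.3% came from 8 cells with at least 2 of the 6 PGC genes, where the level was 294.5 CPM. The 233 d4 cells without any PGC gene held 5.71 CPM, and the 289 such d2 cells 229 CPM. The d2 value was therefore spread over the somatic cells, and most of the d4 value sat in a few cells with PGC genes. *Sall4* went from 208 to 31.9 CPM, *Lin28a*, an RNA-binding protein that blocks let-7, from 100.2 to 17.8 CPM, and *Dppa5a* from 417 to 71.4 CPM. *Nanog* was low at both stages, at 2.82 CPM (1.94 to 3.96) and 2.11 CPM (1.25 to 3.33). The member that was higher was *Klf2*, at 34.1 CPM (30.9 to 37.7) and 90.9 CPM (84.6 to 97.5), a factor that endothelium also uses. Of the 7 measured PGC genes, 2 were higher (*Rhox5*, and *Tfap2c* with 93.8% of its d4 UMIs in cells with extraembryonic ectoderm markers) and 2 lower (*Ifitm3* and *Dnd1*).

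The lowest log2(CPM + 1) ratio of all measured genes belonged to a proteasome gene. *Psmb8* (LMP7), on chromosome 17 (chr17:34197721-34201454 of GRCm38), encodes a catalytic subunit of the immunoproteasome, the form of the proteasome that interferon induces and that cuts peptides for MHC class I. It was at 231 CPM (223 to 240.1) in d2 somatic cells and 2.11 CPM (1.25 to 3.33) in d4 somatic cells, 109.8-fold lower (69.4 to 186). It had a UMI in 80.4% (76.3 to 84) of d2 and 1.72% (0.56 to 3.96) of d4 cells, and its d2 UMIs were spread over the cells, with 16.5% in the top 5%. The other catalytic subunits of this form showed the same direction. *Psmb9* (LMP2) had 244 UMIs at d2 and 2 at d4, that is 20.8 and 0.234 CPM with a ratio of d2 over d4 of 89.0 (24.4 to 739), and *Psmb10* (MECL-1) was at 269 CPM (259 to 278) and 26.1 CPM (22.8 to 29.7), 10.3-fold lower (8.99 to 11.9). Both subunits of the PA28 activator were lower, *Psme1* at 349.5 and 82.8 CPM and *Psme2* at 510.3 and 127 CPM. The 14 genes of the standard 20S proteasome did not share this. For these 0 were higher and 0 lower, with log2 ratios from -0.43 to 0.02. *Psmb5*, *Psmb6* and *Psmb7*, whose products the immunoproteasome subunits replace, were at 315 and 282, 434 and 427, and 252 and 237 CPM.

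This led to 3 lists (antigen processing, interferon response and standard proteasome) that were written after *Psmb8* and some other members had been seen, so their counts are descriptions only. Of 17 measured antigen processing genes 10 were lower and 0 higher, with a median log2 ratio of -1.87. Besides the proteasome genes, those lower were *Tap1*, *Tap2*, *Tapbp* and *Tapbpl*, which load peptides on MHC class I, and the peptidase *Erap1*. *Tapbp* was at 69.5 CPM (64.8 to 74.4) and 14 CPM (11.6 to 16.8). Over all cells the class I molecules were not among them, with *H2-D1* at 39.9 and 40.1 CPM, *H2-K1* at 26.9 and 21.2 CPM, and *B2m*, their light chain, at 127 CPM (121 to 134) and 80.2 CPM (74.3 to 86.5). A minority of cells held much of the d4 level of *H2-D1* and *H2-K1*, since 57.7% and 41.4% of their UMIs lay in the 33 d4 cells with extraembryonic ectoderm markers described further on. In cells without markers of extraembryonic ectoderm, endothelium or blood, *H2-D1* was at 35.9 and 14.6 CPM and *H2-K1* at 26.3 and 12.0 CPM, both at least 2-fold lower. Of 46 measured interferon response genes 30 were lower and 2 higher, with a median of -1.75. The most abundant were the interferon-induced membrane proteins, with *Ifitm1* at 832 CPM (816 to 849) and 60.0 CPM (54.9 to 65.4), *Ifitm3* at 829 CPM (812 to 846) and 111 CPM (104 to 119) and *Ifitm2* at 1081 and 406 CPM. *Bst2* (tetherin) was at 211 CPM (202 to 219) and 35.6 CPM (31.7 to 39.8). *Isg15*, a ubiquitin-like protein, was at 51.4 CPM (47.4 to 55.7) and 11.1 CPM (8.99 to 13.6), and the GTPase *Irgm1* at 41.7 CPM (38 to 45.5) and 2.69 CPM (1.71 to 4.04). *Ifi27l2a* was 28.2-fold lower (14.1 to 65.9), at 26.4 and 0.936 CPM. The regulator *Irf1* was at 28.9 CPM (25.9 to 32.2) and 3.98 CPM (2.75 to 5.56). The members that were higher, *Rsad2* (0.256 and 15.6 CPM) and *Cxcl10* (2.30 and 13 CPM), had 98.5% and 95.5% of their d4 UMIs in the top 5% of cells. Of the *Rsad2* UMIs, 94.7% lay in cells with endothelium markers.

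Promoter windows of 5 of these lower genes are printed because a short interferon-type motif occurred in them. The windows reach from 250 bases before to 50 after the start of the gene in RefSeq on GRCm38.p6, and are written 5′ to 3′ on the strand of the gene. Capitals mark the matches of GAAANNGAAA (a core of the interferon-stimulated response element) in *Isg15*, *Bst2* and *Irgm1*, where overlapping matches run together, and of TTCNNNGAA (the form bound by STAT factors) in *Psmb8* and *Irf1*. The window of *Bst2* holds TTCNNNGAA as well, which is not marked in its own right and overlaps the start of the stretch in capitals. The windows lie at chr17:34197945-34198244 (plus strand) for *Psmb8*, chr4:156200769-156201068 (minus) for *Isg15*, chr8:71537423-71537722 (minus) for *Bst2*, chr11:48871371-48871670 (minus) for *Irgm1* and chr11:53769764-53770063 (plus) for *Irf1*.
Psmb8: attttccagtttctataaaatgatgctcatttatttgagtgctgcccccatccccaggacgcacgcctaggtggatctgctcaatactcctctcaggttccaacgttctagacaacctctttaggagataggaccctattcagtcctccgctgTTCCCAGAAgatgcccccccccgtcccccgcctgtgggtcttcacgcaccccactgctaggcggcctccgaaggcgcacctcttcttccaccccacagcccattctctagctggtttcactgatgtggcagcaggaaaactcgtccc
Isg15: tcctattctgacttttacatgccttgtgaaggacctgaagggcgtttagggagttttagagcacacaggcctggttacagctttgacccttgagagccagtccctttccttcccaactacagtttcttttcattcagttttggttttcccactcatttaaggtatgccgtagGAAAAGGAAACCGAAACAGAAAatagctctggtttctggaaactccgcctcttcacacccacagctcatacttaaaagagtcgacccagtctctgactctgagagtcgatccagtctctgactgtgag
Bst2: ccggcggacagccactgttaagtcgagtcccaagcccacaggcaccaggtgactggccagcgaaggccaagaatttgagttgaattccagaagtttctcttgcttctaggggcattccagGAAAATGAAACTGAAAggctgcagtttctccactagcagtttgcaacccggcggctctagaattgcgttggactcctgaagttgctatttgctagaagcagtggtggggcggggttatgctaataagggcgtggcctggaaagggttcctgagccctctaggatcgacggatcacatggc
Irgm1: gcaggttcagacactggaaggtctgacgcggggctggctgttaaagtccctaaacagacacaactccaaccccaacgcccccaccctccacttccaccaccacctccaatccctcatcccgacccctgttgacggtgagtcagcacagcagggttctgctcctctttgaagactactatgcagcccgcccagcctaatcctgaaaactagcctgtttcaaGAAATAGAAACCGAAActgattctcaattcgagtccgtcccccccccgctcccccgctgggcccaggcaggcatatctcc
Irf1: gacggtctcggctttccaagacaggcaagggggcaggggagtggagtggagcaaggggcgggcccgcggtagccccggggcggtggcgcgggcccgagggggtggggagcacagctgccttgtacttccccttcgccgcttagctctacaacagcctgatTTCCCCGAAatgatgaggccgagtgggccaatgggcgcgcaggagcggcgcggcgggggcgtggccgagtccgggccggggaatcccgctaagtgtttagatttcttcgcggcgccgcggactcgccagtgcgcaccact

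Both motifs were searched on both strands in the windows of 8446 measured genes (78.8%). Windows of 1 chromosome were not used. GAAANNGAAA was found in 2.63% of all of them, in 2.44% of those higher at d4 and in 6.73% of those lower. Among the lower genes it stood in 13 of 28 members (46.4%) of the antigen processing and interferon lists and in 2.60% of the 269 other genes. Of the 22 members of these lists that were not lower, 8 (36.4%) had it too. TTCNNNGAA was found in 6.64% of all windows, in 28.6% of the lower members of these lists and in 18.2% of their other members. A match is a description of the letters and not a binding site, and the lists consist mostly of genes known to respond to interferon.

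These lists were also lower at d4 in the listed PGCLC of the same libraries. The median log2 ratio there was -2.47 over 17 measured antigen processing genes and -1.83 over 40 interferon response genes. Some members were low in the EpiLC that preceded the EB. In listed PGCLC *Psmb8* was at 188 CPM at d2 and 0.948 at d4, and in d2 EpiLC at 11.3 CPM. *Isg15* was at 45.3 and 0.948 CPM in PGCLC and 0.896 in EpiLC. *Tapbp* was at 67.5 and 5.69 CPM in PGCLC and 12.8 in EpiLC. *Ifitm1* stood apart, at 1612 and 1123 CPM in PGCLC. *Bst2* (EpiLC 254 CPM) and *Psmb10* (EpiLC 171 CPM) were already abundant in EpiLC. Since both cell types of a stage share 1 library and 1 culture, a difference between cultures and one between stages cannot be told apart here.

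**Figure D2:**
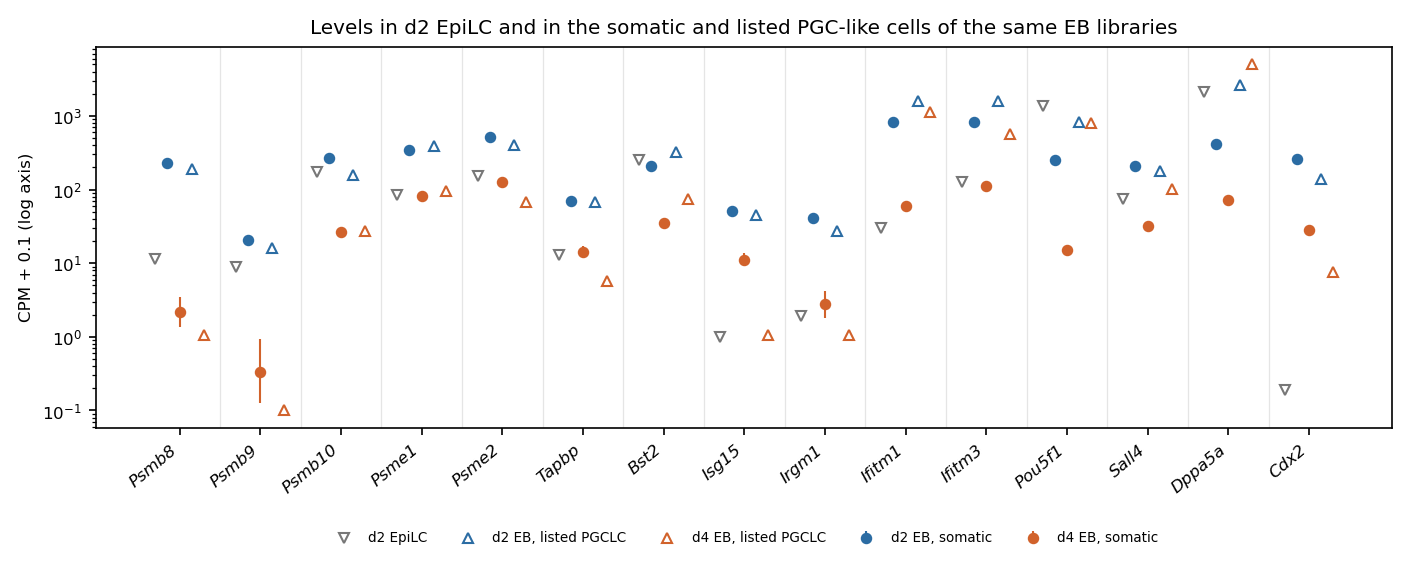
Levels as CPM + 0.1 on a log axis of 15 genes in d2 EpiLC (grey), in somatic cells (filled, with 95% Poisson intervals) and in listed PGCLC (open triangles) of the d2 (blue) and d4 (orange) EB. *Psmb8* was at 231 and 2.11 CPM in somatic cells and at 188 and 0.948 CPM in listed PGCLC of d2 and d4, whereas *Pou5f1* was at 824 and 808 CPM in listed PGCLC.

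Most genes of extraembryonic mesoderm and allantois were higher at d4. Of 19 measured members 13 were higher and 2 lower, with a median of 1.94. The highest log2(CPM + 1) ratio of the list was that of *Wnt2* (chr6:17988940-18030585), a WNT ligand of the allantois, with 1 UMI at d2 and 1169 at d4. This is 0.0854 and 137 CPM (129 to 145), a ratio of 1602 (287 to 63332), and the gene was detected in 70.4% (64.8 to 75.6) of d4 cells. The T-box factor *Tbx4* was at 8.96 CPM (7.33 to 10.8) and 77.2 CPM (71.4 to 83.3), and *Pitx1*, a homeobox factor shared by allantois and hindlimb, at 25 CPM (22.2 to 28) and 204 CPM (195 to 214). Of the bHLH factors, *Twist1* was at 17.3 CPM (15 to 19.9) and 167 CPM (158 to 176) and *Hand2* at 5.97 CPM (4.66 to 7.55) and 104 CPM (96.8 to 111). They were detected in 75.9% (70.6 to 80.7) and 65.3% (59.5 to 70.8) of d4 cells. The 2 members that were lower were already high at d2. *Hand1*, a bHLH factor of early extraembryonic mesoderm at 942 CPM (924 to 959) in 97% (94.9 to 98.4) of d2 cells, was 3.85-fold lower (3.67 to 4.04), at 245 CPM (234 to 255), and *Bmp4* was 3.57-fold lower (3.08 to 4.16), at 89.4 CPM (84 to 94.9) and 25 CPM (21.8 to 28.6). These mesoderm genes sat in the same cells. Of the 205 thinned d4 cells with *Wnt2*, 194 also had *Igfbp5* and 193 *Pitx1*.

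Several of the largest differences were in secreted proteins and the matrix. *Igfbp5* (chr1:72857932-72874884), a secreted protein that binds insulin-like growth factors, was at 0.683 CPM (0.295 to 1.35) and 219.9 CPM (210.1 to 230.1), 322-fold higher (163 to 747). It had a UMI in 1.17% (0.38 to 2.71) of d2 and 75.6% (70.2 to 80.4) of d4 cells. *Igfbp7* was 75.1-fold higher (45.3 to 135). Of 28 measured collagen and matrix genes 22 were higher and 0 lower, with a median of 2.48. *Col3a1*, a fibrillar collagen, had 2 UMIs at d2 and 789 at d4, 0.171 and 92.3 CPM, with a ratio of 541 (149 to 4472). *Col1a2*, a chain of type I collagen, was at 4.52 CPM (3.39 to 5.92) and 131 CPM (123 to 139), whereas *Col1a1*, its partner chain, was already at 56.2 CPM (52 to 60.6) at d2 and at 219 CPM (209 to 229) at d4. *Vcan*, the proteoglycan versican, was 53.2-fold higher (38.9 to 74.8), and the heparin-binding growth factor *Ptn* 72.2-fold higher (46.5 to 119). Basement membrane collagens *Col4a1* (10.4 and 118 CPM) and *Col4a2* (9.73 and 68.8 CPM) and the collagen chaperone *Serpinh1* (253 and 542 CPM) were higher too. Cells with endothelium markers held 49.95% of the d4 *Col4a1* and 49.5% of the d4 *Col4a2* UMIs. Fibronectin (*Fn1*), which was already high at d2, differed less, at 260.1 CPM (251 to 269.6) and 395 CPM (382 to 409).

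Some membrane and cytoplasmic proteins were among the 15 highest ratios as well. *Itm2a*, a transmembrane protein, was 35.4-fold higher (29 to 43.6) and in 77% (71.7 to 81.7) of d4 cells. *Asb4*, a substrate receptor of a ubiquitin ligase, was 39-fold higher (31.3 to 49.1) and in 76.3% (71 to 81.1). *Pcsk1n*, an inhibitor of prohormone convertase, was 50.6-fold higher (33.5 to 80.3), and the semaphorin *Sema6d* 85-fold higher (38.7 to 233). A list of mesenchyme and epithelial genes held 21 measured members, of which 10 were higher and 1 lower. Its 13 mesenchyme genes gave 9 higher and 0 lower, and its 8 epithelial genes 1 higher and 1 lower. *Prrx1* was at 1.54 CPM (0.911 to 2.43) and 62.2 CPM (57.1 to 67.8), and *Zeb1* at 4.95 and 34.7 CPM, *Twist2* at 28.6 and 197 CPM and the cadherin *Cdh11* at 5.21 and 29.1 CPM. The epithelial adhesion molecule *Epcam* was lower, at 78.6 CPM (73.6 to 83.9) and 31.3 CPM (27.7 to 35.3), and the keratin *Krt19* higher, at 49.6 and 146 CPM, with 83.2% of its d4 UMIs in cells with extraembryonic ectoderm markers. Over all cells the other epithelial genes, such as *Krt8* (670.0 and 658 CPM) and *Cdh1* (32.1 and 17.2 CPM), lay under 2-fold. Of the d4 *Cdh1* UMIs, 74.15% lay in cells with extraembryonic ectoderm markers. In cells without markers of extraembryonic ectoderm, endothelium or blood, *Cdh1* (22.1 and 5.90 CPM), *Krt18* (347 and 141 CPM), *Cldn7* and *Epcam* were at least 2-fold lower. There *Krt8*, *Krt19*, *Cldn6* and *Esrp1* were not. *Vim*, the intermediate filament of mesenchyme, was high at both stages (409 and 525 CPM). Of 17 measured muscle genes 7 were higher and 2 lower, with *Acta2* at 13.8 and 53.2 CPM and *Mef2c* at 1.62 and 37.8 CPM, but *Tpm1* at 885 and 369 CPM. Cells with endothelium markers held 49.2% of the d4 *Mef2c* UMIs.

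**Figure D3:**
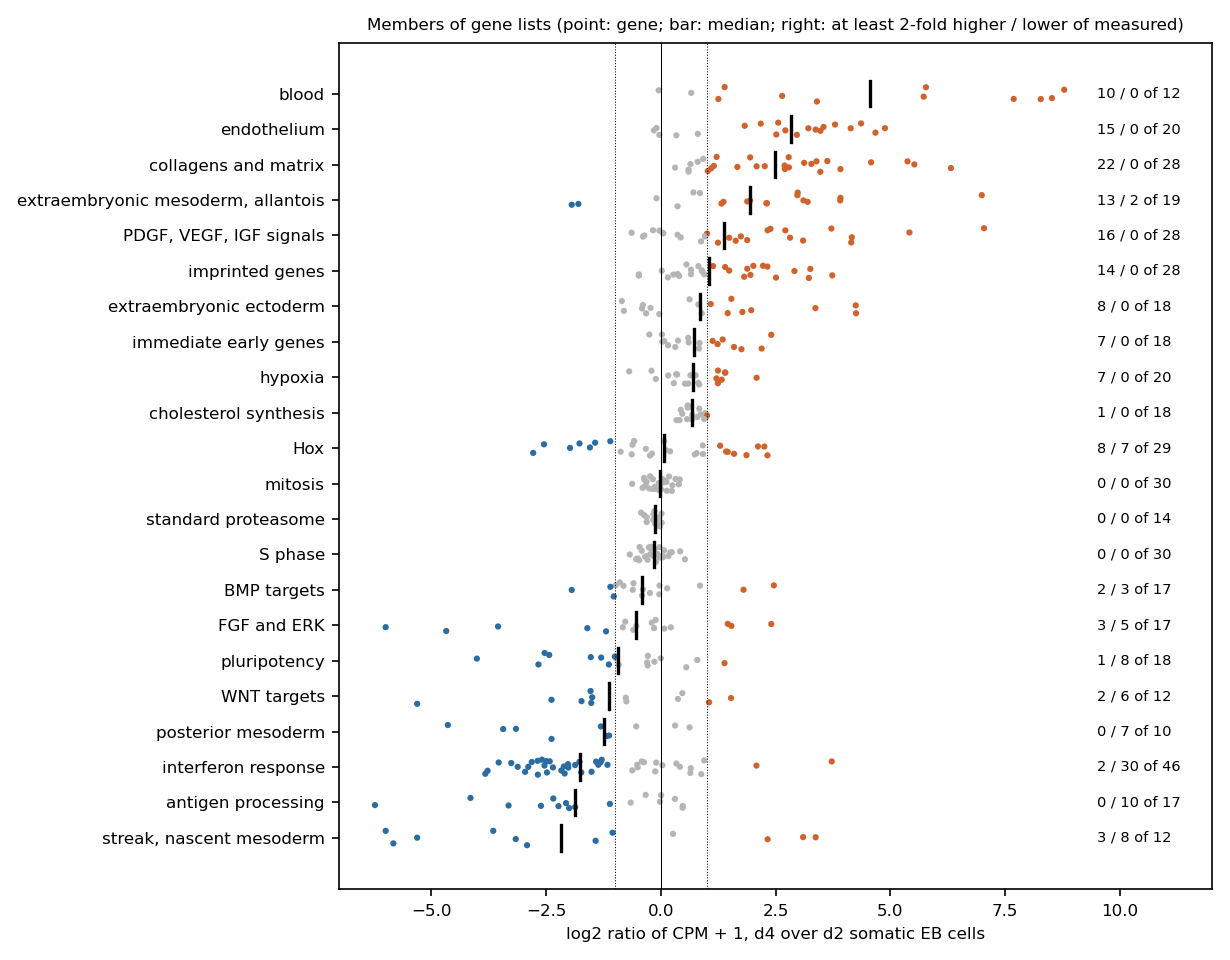
Log2 ratio of CPM + 1 of d4 over d2 somatic cells (x axis) for the measured members of 22 gene lists (points, orange at least 2-fold higher, blue at least 2-fold lower), with the median of each list as a bar. The counts at the right give members higher, lower and measured, such as 22, 0 and 28 for collagens and matrix. Medians run from 4.56 for blood (0.73 without marker cells) to -2.17 for streak and nascent mesoderm genes.

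Counted per cell, the mesoderm genes split the d4 cells. The number of the 20 extraembryonic mesoderm genes with a UMI in a thinned cell had a median of 6 at d2 and 13 at d4. At d4 the distribution had a gap, with 1 cell at exactly 8 genes, 72 of 291 cells (24.7%) at 8 or fewer and 219 (75.3%) at 9 or more. At d2, 368 of 428 cells had 8 or fewer, with no gap. Most of the 72 d4 cells with few mesoderm genes carried markers of other classes. Of these, 59 passed a cut of at least 3 markers of extraembryonic ectoderm (31 cells), endothelium (24) or blood (11), some of them more than 1 cut, whereas 8 of the 219 others did. Their median depth was 35810 UMIs before thinning, against 20688 in the 219. Streak genes showed the reverse, with a median of 2 genes and a maximum of 9 at d2 against a median of 1 and a maximum of 4 at d4. Collagen and matrix genes had medians of 5 and 13 of 36, antigen processing genes 9 and 6 of 18.

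**Figure D4:**
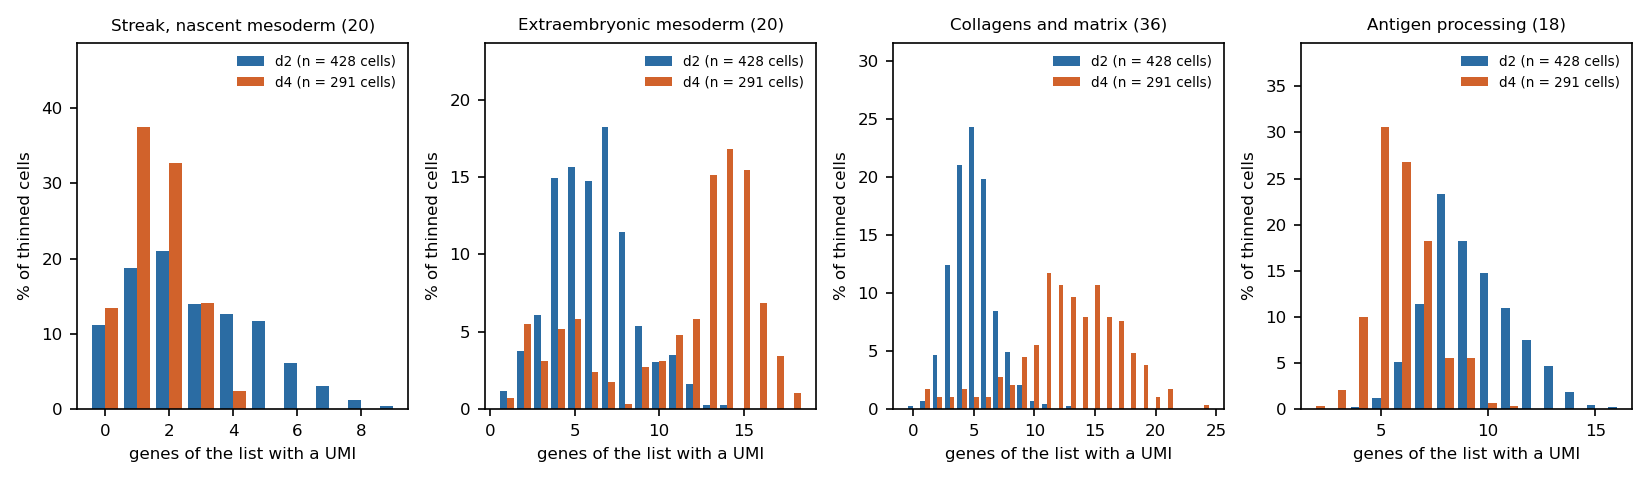
Percentage of thinned d2 (blue, 428) and d4 (orange, 291) somatic cells (y axis) by the number of genes of a list with a UMI in the cell (x axis), for 4 lists whose size is in brackets. Extraembryonic mesoderm genes split the d4 cells into 72 with at most 8 and 219 with at least 9.

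Endothelium-marker cells were mainly a feature of d4. A cell was counted when at least 3 of *Pecam1*, *Cdh5*, *Tek*, *Tie1*, *Cldn5*, *Emcn*, *Esam*, *Sox17*, *Sox7* and *Etv2* had a UMI. This was so in 5 of 446 d2 cells (1.12%, 0.365 to 2.60) and 28 of 324 d4 cells (8.64%, 5.82 to 12.2). After thinning the shares were 0.234% and 8.25%. At d4 3 cells lay at exactly 3 markers and 20 at 2, so that 25 cells had 4 or more. Listed d4 PGCLC passed the cut of 3 markers in 3 of 44 cells (6.82%, 1.43 to 18.7) and, thinned, in 5.26%. The lower end of this cut thus does not separate the classes, whereas 0 of these 44 cells had 4 or more markers. Of 20 measured genes of the endothelium list 15 were higher and 0 lower, with a median of 2.84, and *Cdh5* (VE-cadherin) was at 0.768 and 44.1 CPM (39.8 to 48.8). Without the marker cells this median was -0.36 to -0.24, by construction. Over all cells, not all endothelial genes followed. *Etv2*, which starts the endothelial and blood lineages, was at 28.4 CPM (25.5 to 31.6) and 26.6 CPM (23.2 to 30.2), and *Flt1* at 25.6 and 25 CPM. The cells that held *Flt1* differed, however. At d2 it was at 111 CPM in cells with extraembryonic ectoderm markers and 13.5 CPM in cells that passed no cut. Of its d4 UMIs, 59.8% lay in endothelium-marker cells and 32.2% in cells with extraembryonic ectoderm markers. In d4 cells that passed no cut it was at 2.77 CPM. Among the 15 highest ratios, *Ctla2a*, an inhibitor of cysteine proteases, had 3 UMIs at d2 and 377 at d4 (ratio 172, 58.5 to 839), with 92.0% of its d4 UMIs in the 28 cells. For *Cd34*, a sialomucin of endothelial and blood progenitors and 76.2-fold higher (36.6 to 191), this was 78.9%. For *Hapln1*, which links hyaluronan to proteoglycans and had 2 and 402 UMIs (ratio 275, 75.8 to 2282), it was 75.4%. In contrast, *Igfbp5* and *Wnt2* had 94.7% and 96.2% of their d4 UMIs in the 256 cells that passed no cut, where they stood at 328 and 207 CPM.

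Globins gave the highest log2(CPM + 1) ratios of all measured genes, and nearly all of their UMIs came from 3 cells. *Hbb-y* and *Hba-x*, the embryonic beta- and alpha-type globins, had 0 UMIs at d2 and 3755 and 3120 at d4. Their levels were 439 and 365 CPM, at least 1715-fold and 1425-fold higher against the floor of 3 counts over all d2 cells (0.256 CPM). Of 12640 UMIs of the globin markers at d4, 97.6% were in 3 cells with at least 100 each, the highest with 6896. A further 181 of 324 cells had 1 to 3 globin UMIs, and 195 cells (60.2%) had any. Among the 44 listed d4 PGCLC, 27 (61.4%) had 1 or 2 globin UMIs as well. The median depth of these 44 cells was 24558 UMIs, against 21487.5 in the somatic cells. The source of such low globin counts was not tested. The cut of 3 blood markers was passed by 14 d4 cells (4.32%, 2.38 to 7.14), by 4 of 291 after thinning (1.37%) and by 0 of 446 d2 cells (at most 0.824%). It must be read with these widespread low counts in mind. *Hba-a1* and *Hba-a2* are near-identical copies, so that their split is uncertain.

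Extraembryonic ectoderm genes were also carried by a minority. At least 3 markers of a short list of such genes, among them *Elf5*, *Esx1*, *Rhox6* and *Ascl2*, had a UMI in 37 d2 cells (8.30%, 5.91 to 11.3) and 33 d4 cells (10.2%, 7.12 to 14), and in 5.14% and 9.28% of thinned cells. The listed PGCLC passed this cut in 14.3% (7.83 to 23.2) of d2 and 20.5% (9.80 to 35.3) of d4 cells, so the lower end of the cut does not separate the classes. With at least 4 markers the shares were 3.59% and 8.02% of somatic cells. Of 18 measured genes of the list 8 were higher and 0 lower, with a median of 0.85, which became -0.47 when these marker cells were left out. *Krt18*, a keratin of simple epithelia, shows how level and share can part. Its level was 587 CPM at d2 and 548 CPM at d4, but its share of cells went from 73.8% (69.4 to 77.9) to 37.1% (31.5 to 42.9), and 82.6% of its d4 UMIs lay in the 33 marker cells. Some of the higher members lay mostly outside these cells. *Rhox5* was 21.8-fold higher (17.2 to 27.9), with 80.7% of its d4 UMIs in the 256 cells that passed no cut, and *Fgfr2*, an FGF receptor, was 3.12-fold higher (2.46 to 3.98), with 79.1% there.

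The cells that passed any of these 3 cuts were 68 of the 324 d4 cells (21%) but held 36.5% of the d4 UMIs, as they were deeper (median 41729 UMIs for extraembryonic ectoderm, 32470 for endothelium and 40694 for blood markers, against 20008 in the rest). The cuts were made before thinning, where deeper cells pass them more easily, so depth is partly built into the classes. The 4 d4 cells that passed the extraembryonic ectoderm cut and another cut had a median of 74954 UMIs. Without the doublets that Scrublet marked, 1034 genes were higher and 425 lower. Over 50% of the d4 UMIs lay in the 68 cells that passed a cut for 290 (28.2%) of the 1027 higher genes and for 14% of all measured genes. In the cells of both stages that passed none of the 3 cuts, 799 (77.8%) of the higher and 386 (91.5%) of the lower genes were still at least 2-fold different. No minimum of UMIs was set in these cells. With the minimum of 50 UMIs applied to these cells, the counts were 714 and 366. Over all alternatives, leaving out the marker cells included, list medians ran from -3.18 to -1.05 for streak, 1.84 to 3.02 for matrix and 1.85 to 2.31 for extraembryonic mesoderm genes. In the d4 cells that passed no cut *Psmb8* was at 2.95 CPM, against 259 CPM in such d2 cells.

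Signal pathways held members that were higher and members that were lower. Over all measured genes 9.58% were higher and 3.94% lower, and list counts near these shares are not read as a result about the list. BMP, which was added to the medium, is read out by *Id1* and *Id3*. These were at 749 CPM (734 to 765) and 1046 CPM (1028 to 1065) at d2 and 403 CPM (389 to 416) and 528 CPM (513 to 544) at d4, under 2-fold lower, and were detected in 94.5% and 95.5% of d4 cells. Of 17 measured BMP targets 2 were higher (*Gata6*, at 25.5 CPM (22.7 to 28.6) and 145 CPM (137 to 153), and *Gata4*) and 3 lower (*Hand1*, *Msx1* and *Bambi*), with a median of -0.41. Of 15 measured ligands, receptors and antagonists of BMP, 2 were higher and 4 lower, among them *Bmp7* at 23.1 CPM (20.5 to 26.1) and 3.04 CPM (1.99 to 4.46).

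WNT genes went both ways. Of 22 measured ligands, receptors and antagonists 9 were higher and 4 lower. Beside *Wnt2*, the secreted antagonist *Sfrp1* was 11.9-fold higher (10.2 to 13.9), at 15.9 and 189 CPM, and the receptor *Fzd1* was at 3.84 and 32.9 CPM. Lower were *Wnt3* (16.4 and 5.50 CPM) and *Wnt5a* (94.9 and 37.8 CPM), both ligands of the streak region, the WNT enhancer *Rspo3* (134 and 60.7 CPM) and the receptor *Fzd10* (46.5 and 3.74 CPM). Of 12 measured WNT targets 6 were lower and 2 higher, with a median of -1.13. *Axin2*, a feedback inhibitor read as a general WNT target, was at 41.3 CPM (37.7 to 45.2) and 13.8 CPM (11.4 to 16.5), and *Lef1* at 71.2 CPM (66.4 to 76.2) and 24 CPM (20.8 to 27.5).

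In the FGF and ERK list 5 of 17 measured members were lower and 3 higher. Those lower were the ligands *Fgf8*, *Fgf3* and *Fgf15* (18.9 and 0.702 CPM) and the ERK targets *Etv5* (29.7 and 9.12 CPM) and *Dusp4* (17.3 and 7.02 CPM). The immediate early gene *Egr1* was higher, at 43.1 CPM (39.4 to 47) and 232 CPM (222 to 243). It belongs to a list of immediate early and heat shock genes that dissociation can induce, in which 7 of 18 measured members were higher and 0 lower (median 0.72), and the part of handling in this was not tested. In the Nodal and TGF-beta list 3 of 12 were higher and 3 lower, in the Notch list 0 of 10 and 3, in the retinoid list 1 of 9 and 1, and in the hedgehog list 1 of 6 and 1. The latter included *Gas1*, a hedgehog co-receptor, at 17.4 and 108 CPM, and *Ptch1*, a hedgehog target, at 24.5 and 10.9 CPM. Such small counts stand beside 9.58% higher and 3.94% lower over all measured genes, and no result about these lists is drawn from them.

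Signals of vessels and mesenchyme were higher or near their d2 level. Of 28 measured genes of PDGF, VEGF, IGF, angiopoietin and guidance signals 16 were higher and 0 lower, with a median of 1.37. The ligand *Vegfc* was at 1.62 CPM (0.976 to 2.53) and 45.4 CPM (41 to 50.1), *Angpt2* at 1.11 and 26.7 CPM and *Cxcl12* at 11.9 and 39.1 CPM. Among the receptors, *Kdr* (VEGFR2) was at 8.62 CPM (7.02 to 10.5) and 62 CPM (56.8 to 67.5) and *Nrp1* at 22.2 and 120.2 CPM. *Igf1* had 0 UMIs at d2 and 16.8 CPM at d4, 65.8-fold above the floor. Endothelium-marker cells held 95.8% of the d4 *Igf1* and 74.3% of the *Kdr* UMIs, and in the 256 cells that passed no cut these genes stood at 1.11 and 24.3 CPM. *Vegfc* and *Angpt2* had 87.6% and 95.2% of their d4 UMIs in those 256 cells.

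Hox genes divided in part by their place in the cluster. Along each cluster, low paralog numbers are used first and in the front of the embryo and high numbers later and further back. Of 17 measured genes of paralog groups 1 to 8, 5 were lower and 0 higher (median -0.58, summed level 259 and 153 CPM). Still, 5 of these 17 lay above 0, among them *Hoxc6* at 0.92 and *Hoxb7* at 0.91. Of 8 measured genes of groups 10 to 13, 7 were higher and 0 lower (median 1.73, summed level 41.2 and 161 CPM), and all 8 were above 0, from 0.78 for *Hoxa13* to 2.32 for *Hoxd13*. Group 9 was mixed, with *Hoxa9* at 15.4 CPM (13.2 to 17.8) and 42.8 CPM (38.5 to 47.4) but *Hoxd9*, the most abundant Hox gene at d2, at 122 CPM (116 to 129) and 20.1 CPM (17.2 to 23.4). *Hoxb1* was at 16.3 CPM (14.1 to 18.8) and 1.52 CPM (0.81 to 2.60), *Hoxc10* at 7.25 CPM (5.79 to 8.97) and 38.4 CPM (34.3 to 42.8) and *Hoxd13* at 2.22 CPM (1.45 to 3.25) and 15.1 CPM (12.6 to 17.9). The whole list of 29 gave 8 higher and 7 lower, which hides this order.

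**Figure D5:**
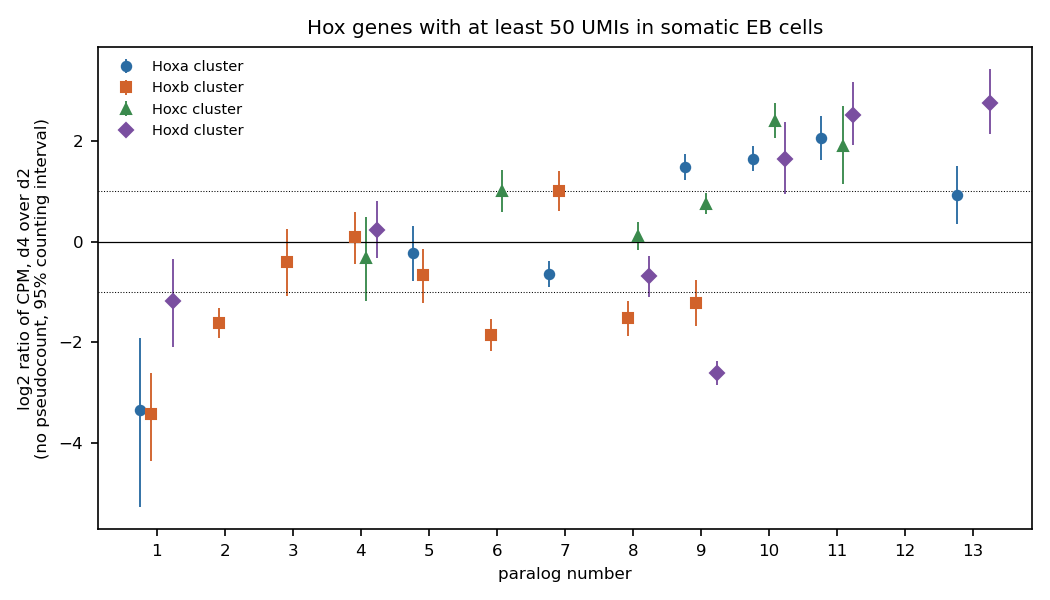
Log2 ratio of CPM without pseudocount of d4 over d2 somatic cells (y axis) with 95% counting intervals for the 29 measured Hox genes, by paralog number (x axis) and cluster (color and shape). Dotted lines mark 2-fold. Groups 10 to 13 lie above 0 (8 of 8), groups 1 and 2 below.

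Imprinted genes, of which mainly the copy from a single parent is used, were higher or near their d2 level. Of 28 measured 14 were higher and 0 lower, with a median of 1.04. *Cdkn1c* (p57), a cell cycle inhibitor, was at 388 CPM (377 to 399.6) and 2213 CPM (2181 to 2244), 5.70-fold higher (5.52 to 5.89). *Igf2*, the fetal growth factor, was at 344 CPM (333 to 355) and 1269 CPM (1245 to 1293) and detected in 99.7% of d4 cells. *Mest* was at 284 and 1334 CPM, *Sgce* at 26.7 and 367 CPM and *Dlk1* at 213 and 750.5 CPM. *H19*, the noncoding RNA next to *Igf2*, was at 4.61 and 51.4 CPM, with 91.6% of its d4 UMIs in the top 5% of cells. In the listed PGCLC *Cdkn1c* was at 181 and 37.9 CPM, and *Igf2* at 27.6 and 46.5 CPM. Of 7 measured genes of DNA methylation, *Tet2* and *Tet3* were higher and *Dnmt3b*, the de novo methyltransferase of the epiblast, was lower, at 47.6 CPM (43.8 to 51.7) and 14.4 CPM (12 to 17.2).

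Genes of proliferation and core metabolism differed little. None of 30 S phase genes, 30 mitosis genes, 81 ribosomal protein genes, 88 nuclear respiratory chain genes and 13 mitochondrial transcripts passed 2-fold in either direction, with medians of -0.14, -0.01, -0.15, 0.06 and -0.08. In contrast to S phase and mitosis, 3 of 16 genes of the G1 list were higher and 3 lower, with the cyclins *Ccnd1* (64.8 and 22.3 CPM) and *Ccnd2* (162 and 64.6 CPM) lower. Of 21 glycolysis genes 1 was higher and 2 lower, namely *Slc2a3*, a glucose transporter, at 162 and 54.2 CPM, and *Ldhb* at 98.6 and 40.6 CPM. Of 20 hypoxia genes 7 were higher and 0 lower (median 0.70), with *P4ha1*, which hydroxylates collagen, at 9.13 CPM (7.48 to 11) and 42 CPM (37.8 to 46.6). All 18 cholesterol synthesis genes were above 0 (0.34 to 1.01, median 0.68), though only *Dhcr7* reached 2-fold. Of 19 p53 targets 2 were higher and 1 lower, and of 16 genes of the integrated stress response 2 were higher and 0 lower (median 0.53). Over all measured genes 9.58% were higher and 3.94% lower. The small counts for glycolysis, p53 and integrated stress genes are therefore not read as results about these lists.

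Few genes of other lineages could be measured. Of 10 neuroectoderm, 10 surface ectoderm and 13 gut endoderm genes found, 3, 3 and 4 reached 50 UMIs, and of 8 genes of 2-cell embryos 0 did. *Trh*, listed with endoderm, was at 38.4 and 2.22 CPM, and *Rbp4*, the carrier of retinol, at 4.61 and 10.6 CPM. The neural genes *Sox3* and *Nes* were at 4.01 and 16.6 and at 5.55 and 15.4 CPM, and *Hes5*, a Notch target, at 7.51 and 0.234 CPM.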

How the data were processed

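UMI counts per gene and cell were deposited by the authors, who made them with Cell Ranger 2.1.0 on GRCm38 (mm10), brought the E14Tg2a libraries to the same mapped reads per cell and scaled nothing afterwards. The annotation used for counting is not given in the sources used here. Stages were read from barcode suffixes and PGCLC from the study's list. Of 27998 gene identifiers 27645 were paired with a symbol through GENCODE M21 of GRCm38. UMIs were summed per stage, scaled to CPM, and compared as log2(CPM + 1) for genes with at least 50 UMIs, which understates ratios of low genes. With 1 library per stage no test was run, and p-values are not given. The depth per cell limits the precision of shares, and the totals of UMIs that of CPM. Named genes are the 15 highest and 15 lowest log2 ratios among genes with at least 100 UMIs and a UMI in at least 10% of thinned cells of the higher stage, members of the lists, and a few chosen after their values were seen. Some list members entered the counts but are not reported here by name. Members and lists were chosen with earlier results of these data known. Computations used Python 3.11.15, numpy 2.4.6, scipy 1.17.1 and pandas 2.3.3, Scrublet was run in scanpy 1.11.5, and figures were drawn with matplotlib 3.10.9. The computations were tested on simulated data. Alternatives changed the pseudocount, the minimum of UMIs, the fold, depth, scaling and the cells included (14 planned, 3 chosen after seeing the data).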

Additional observations from a re-analysis of the deposited data

How the results depend on the processing

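With 1 library per stage, counting depth is the only error that could be measured. No paired analysis was possible because each stage is 1 library and no result comes from a test. The counts of 1027 higher and 422 lower genes became 611 and 225 with a pseudocount of 5 CPM, 503 and 218 with a minimum of 200 UMIs, 2175 and 869 at 1.5-fold and 491 and 200 at 3-fold, as stricter or looser limits must. The remaining alternatives gave 902 to 1418 higher and 367 to 558 lower genes, and the higher ones made up 65.7% to 73.1% of all called. Detection at 10 points gave 1383 higher and 691 lower genes, and at 30 points 130 and 65. The 506 recomputed ratios of the 30 named genes kept their direction and stayed past 2-fold, and 160 of them moved beyond the counting interval. These genes were picked for the most extreme ratios in the same data. Staying past 2-fold was thus largely set by the choice and says nothing about other genes. Of 713 recomputed list medians 35 had the other sign, in 13 of the 42 lists. In 12 of these lists the median itself was small, at most 0.85 in size, which was that of extraembryonic ectoderm. The remaining one was the endothelium list, at -0.24 without endothelium and blood marker cells and -0.36 without extraembryonic ectoderm marker cells as well, since cells were removed by its own markers. The blood median of 4.56 ran from 0.73 without all marker cells to 6.73. Shares of marker cells depended on the cut and on depth. At 2, 4 or, thinned, 3 markers, extraembryonic ectoderm gave 20.0%, 3.59% and 5.14% at d2, endothelium 12.6%, 0.224% and 0.234% at d2, blood 18.8%, 1.54% and 1.37% at d4 and PGC 9.19%, 0.673% and 1.87% at d2. At 2 markers, the d4 shares were 16.7% for extraembryonic ectoderm, 14.8% for endothelium and 2.47% for PGC.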

Other observations

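Levels in d4 EB of another wild type line, R1 (1416 cells, 1 library, counted in a separate table with a later kit and without setting PGCLC aside), are given beside those of d4 somatic E14Tg2a cells with no comparison, since both tables were made separately. *Igfbp5* was at 219.9 CPM in E14Tg2a and 270.3 in R1, *Vcan* at 182 and 293, *Twist1* at 167 and 223, *Tbx4* at 77.2 and 101, and *Psmb8* at 2.11 and 6.31. *Wnt2* was at 137 and 11.1 CPM, *Asb4* at 276 and 4.86 and *H19* at 51.4 and 453.

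Level and share of cells gave different answers for some genes. A share at least 20 points lower with a level under 2-fold lower was found for 51 genes, and for 11 of these the log2 ratio was above -0.5. They include *Cenpa*, a centromeric histone (236 and 184 CPM, 86.2% and 64.3% of cells), and the tetraspanin *Cd9* (58.6 and 53.6 CPM, 40.4% and 20.3% of cells), named after their values were seen. Conversely, 11 genes were at least 2-fold higher while detected in no larger share of cells, such as *Ldoc1* (22.9 and 92.5 CPM, 16.4% and 15.1% of cells), with 91.9% of its d4 UMIs in the top 5% of cells.

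Of 5 short motifs searched in promoter windows, ACGTG is a core of the element bound by hypoxia-inducible factors. It was found in 11 of the 15 measured hypoxia genes whose window was searched (73.3%) and in 26.9% of the 8446 windows of measured genes. The hypoxia genes are a list of known targets, so that this describes the list and not these cells.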
